A study of Homo sapiens with 7 samples.

Results

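The genes described here are 10 core and feedback genes of the canonical Wnt pathway, namely CTNNB1, APC, AXIN1, AXIN2, LGR5, TCF7, TCF7L2, LEF1, RNF43 and ZNRF3. They were picked out of the table by symbol, from a list drawn up with earlier results of these data known, and all 10 were found among the 20072 gene symbols of the deposited expression table. The cells were HCT116, an established human colorectal carcinoma line, harvested in log-phase growth. Transcription rate (TR) was read by GRO-seq in 2 libraries, steady-state mRNA abundance (RA) by RNA-seq in 3 libraries, and translation activity (TA) by sequencing of polysome-bound mRNA in 2 libraries. GRO-seq lets polymerases already engaged in isolated nuclei extend their RNA with bromo-UTP, and polysome profiling recovers mRNA that sediments with several ribosomes. All 3 groups come from the same single line, and each comparison is between stages of expression. Cells for polysomes were exposed to cycloheximide, which holds ribosomes on mRNA, shortly before lysis, and no such step is described for the other assays, so in every TA comparison the drug and the assay cannot be told apart. RA and TA libraries were made from purified mRNA, and TR libraries from nuclear RNA captured by its bromo-UTP label. In every comparison with TR, these steps and the stage cannot be told apart. The values are means over a whole culture, in which fewer expressing cells and less RNA per cell cannot be told apart.

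In the canonical Wnt pathway, a cytoplasmic destruction complex built on the scaffolds APC and AXIN1 or AXIN2 marks beta-catenin, the product of CTNNB1, for degradation. When a Wnt ligand binds its receptors this complex is inhibited, and beta-catenin enters the nucleus and acts with DNA-binding factors of the TCF/LEF family, here TCF7, TCF7L2 and LEF1. AXIN2, LGR5, RNF43 and ZNRF3 are known targets of the pathway that act back on it. RNF43 and ZNRF3 are membrane ubiquitin ligases that remove Wnt receptors from the cell surface, and LGR5, an intestinal stem cell receptor for R-spondins, counters them. The pathway is activated by mutation in most colorectal cancers, and HCT116 is known for an activating mutation of CTNNB1 itself with APC left intact.

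The deposited unit is RPKM, in which reads are divided by the exon length of the gene and by the size of the library, and which allows levels of different genes to be compared per length. Library sizes worked out from these values were 3391897 and 5629982 reads in TR, 20299018 to 22532134 in RA, and 22421062 and 30805391 in TA, so TR was the most shallow measurement. Of 9 epithelial markers, 8 were at 1 RPKM or more in RA, and their summed level ran from 1530 to 5745 RPKM across the libraries. The summed levels of 7 fibroblast, 6 immune cell and 4 endothelial markers stayed at or under 69.1 RPKM in every library. In RA, 1 fibroblast marker (COL1A1, 11.5 RPKM) and 1 immune cell marker (CD68, 23.1 RPKM) reached 1 RPKM, and no endothelial marker did. COL1A2 was listed at 0 in all RA libraries. The median level of the 14305 genes tested fell from 3.83 and 3.84 in the TR libraries to 3.12 to 3.18 in RA and 2.62 and 2.69 in TA, on the log2(RPKM + 0.1) scale. Among the genes tested, the typical one therefore had a lower RPKM in RA than in TR, and a lower one again in TA. Genes kept only through TR count in these medians. Genes lower in RA than in TR were 6870 of 14305, and 3656 of 10825 with 1 RPKM asked in every assay. The part of the filter in the fall of the medians was not tested. For this reason differences were also computed with every library centred on its own median, and these values are given below where they change a call or a direction.

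Sequences that carry known regulatory letters are shown first for some of the genes described below. They are from the canonical transcripts of GENCODE release 44 on GRCh37, the hg19 build of the files, with T for U. AU-rich elements in the 3′ untranslated region (UTR) are known as sites for proteins that promote decay or restrain translation. The heptamer TATTTAT, searched on the sense strand only and with overlapping matches counted, was found in the 3′ UTR of 6 of the 10 genes, against 33.2% of the 13057 tested genes with a canonical coding transcript. ZNRF3 held 4 copies, RNF43 held 3, AXIN2 held 2, and APC, LGR5 and TCF7L2 held 1 each. No copy was found in CTNNB1, AXIN1, TCF7 or LEF1, which says only that these letters are not there. The 3′ UTRs differ in length, with a median of 1494.5 bases in the 10 genes and 1193 in the genes tested. The ligase genes and AXIN2, which hold the heptamer more than once, are shown with 1 copy in capitals on each line. Not every copy of RNF43 and ZNRF3 is shown. The first ZNRF3 line also holds a copy that overlaps the one in capitals.
AXIN2 chr17:63525861-63525883, minus strand: gcctgaacTATTTATtaaaaaca
AXIN2 chr17:63525711-63525733, minus strand: cttactgaTATTTATagaacagt
RNF43 chr17:56431105-56431127, minus strand: cacatgggTATTTATatctgaac
RNF43 chr17:56431037-56431058, minus strand: tgctaataTATTTATccacaaa
ZNRF3 chr22:29451241-29451263, plus strand: gtcacttgTATTTATttattcat
ZNRF3 chr22:29453248-29453270, plus strand: tactaataTATTTATcttaagcc

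The bases around the start codon are shown for CTNNB1 and TCF7L2, the most abundant of the 10 in polysomes, and for APC and RNF43, which had the largest differences between TA and RA. The start codon is in capitals, position +1 is its A, and no position 0 is counted.
CTNNB1 chr3:41265550-41265563, plus strand: agcgtggacaATGg
TCF7L2 chr10:114710506-114710519, plus strand: tgaaaaaaaaATGc
APC chr5:112090578-112090591, plus strand: gtagccaaggATGg
RNF43 chr17:56492935-56492948, minus strand: agctggtagcATGa
All 10 genes had A or G at position -3, as did 86.7% of 13014 tested genes, and 3 of them, CTNNB1, APC and LGR5, also had G at position +4, against 46.0% of those genes. The leader of RNF43 was 903 bases long and held 18 upstream ATG triplets, against a median leader of 136 bases and no upstream ATG in the genes tested. CTNNB1, LGR5 and TCF7L2 had no upstream ATG, and 40.4% of tested genes had at least 1. All 10 transcripts were longer than the median of 3183 bases. These features are descriptions of the reference sequence, and their part in the levels below was not tested.

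**Figure D1:**
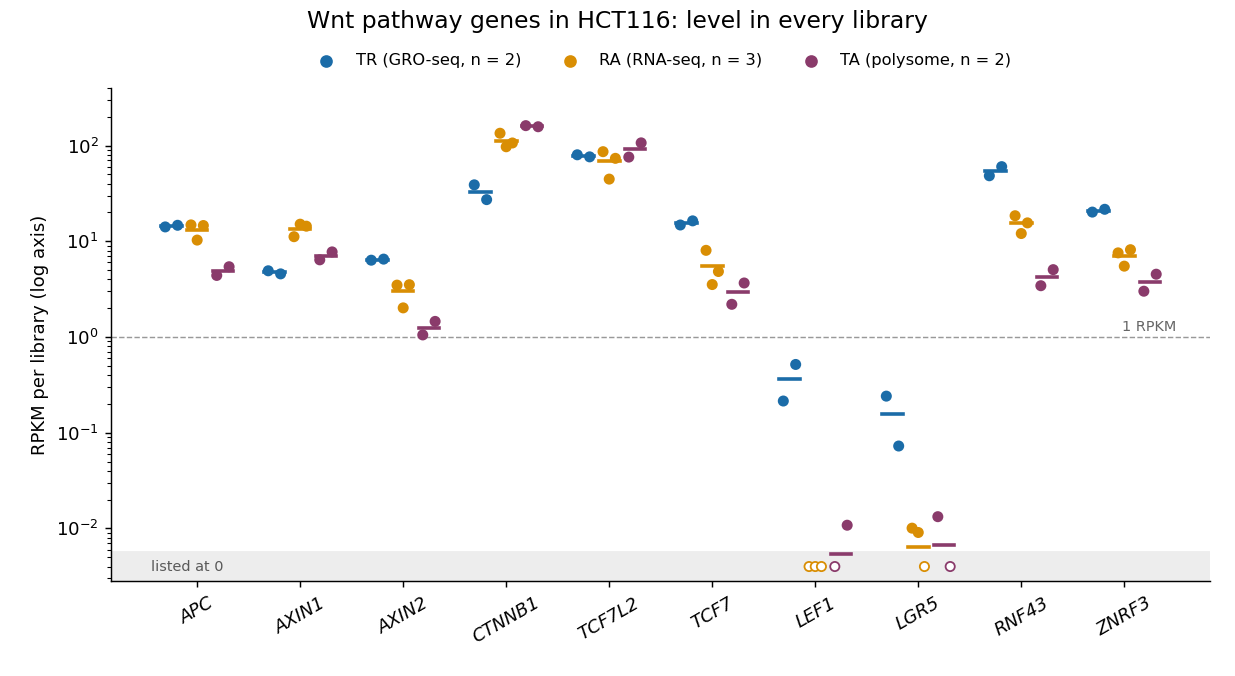
RPKM of each of the 10 genes in every library on a log axis, with points for libraries, short bars for the mean of each assay and open points for values listed at 0. CTNNB1 and TCF7L2 stay at or above 27.2 RPKM throughout, RNF43 steps down from TR to RA to TA, and LEF1 and LGR5 lie under 1 RPKM in all 7 libraries.

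The order of the 10 genes changed between the stages. In TR it ran from TCF7L2 at 78.1 ± 2.7 RPKM (SD, n = 2) through RNF43 at 54.2 ± 8.4, CTNNB1 at 33.0 ± 8.2, ZNRF3 at 20.9 ± 0.99, TCF7 at 15.6 ± 1.1, APC at 14.4 ± 0.4, AXIN2 at 6.42 ± 0.12 and AXIN1 at 4.74 ± 0.25 to LEF1 and LGR5. Of these neighbours, the library ranges of LEF1 and LGR5 alone overlapped. In RA, CTNNB1 stood first at 113 ± 19 RPKM (SD, n = 3) and TCF7L2 second at 68.1 ± 21, apart from each other and from the rest. RNF43, AXIN1 and APC followed at 15.4 ± 3.2, 13.5 ± 2.1 and 13.2 ± 2.6 and could not be ordered beyond their spread, and neither could ZNRF3 and TCF7, at 7.07 ± 1.4 and 5.46 ± 2.3. In TA, CTNNB1 at 159 ± 3 RPKM (SD, n = 2) and TCF7L2 at 91.1 ± 22 stood apart again, AXIN1 followed at 7.07 ± 0.95, and APC, RNF43, ZNRF3 and TCF7 lay between 2.93 and 4.90 with each overlapping its neighbour. AXIN2 was last of the 8 genes above 1 RPKM in every stage except TR.

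**Figure D2:**
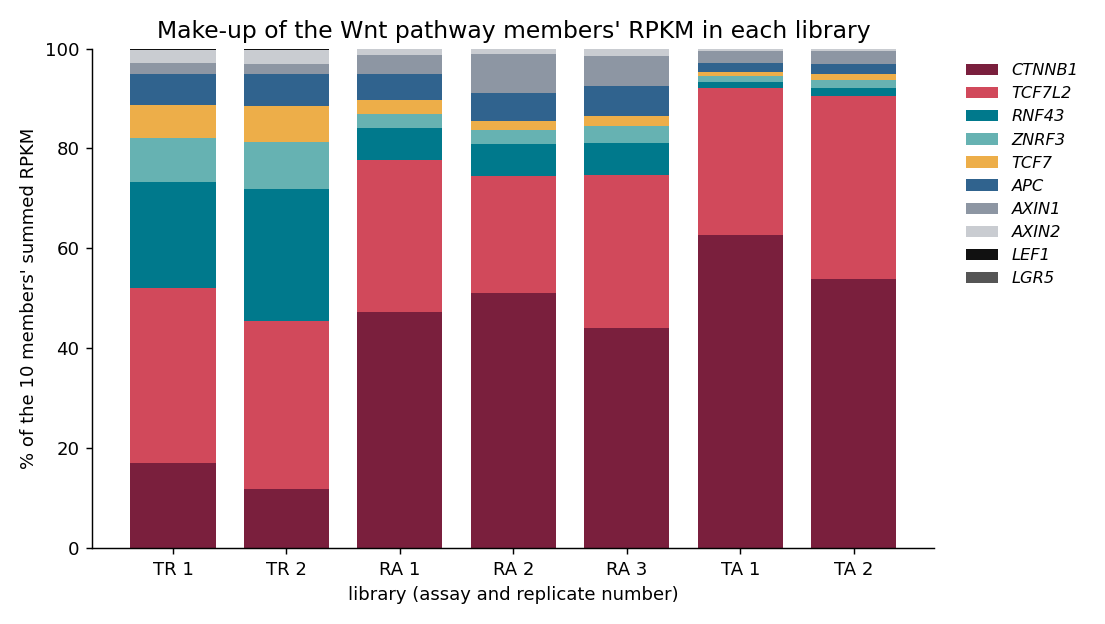
Each bar is a library, divided by the share of each gene in the summed RPKM of the 10 genes, in percent. The share of CTNNB1 and TCF7L2 together is 45.4 to 52.1% in TR, 74.5 to 77.6% in RA and 90.4 to 92.0% in TA, while the RNF43 share narrows from left to right.

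A share within a library does not depend on how libraries are scaled to each other. The 10 genes summed to 228 RPKM in each TR library, 190 to 284 in RA and 257 and 292 in TA. CTNNB1 took 14.5% ± 3.6 of this sum in TR (SD, n = 2), 47.5% ± 3.5 in RA (n = 3) and 58.3% ± 6.2 in TA (n = 2). RNF43 took 23.8% ± 3.7, 6.43% ± 0.087 and 1.53% ± 0.28 in the same order. TCF7L2 moved less, at 34.3% ± 1.2 in TR, 28.1% ± 4.0 in RA and 33.0% ± 5.1 in TA. The ranges of the 3 stages did not overlap for CTNNB1 or RNF43. For TCF7L2 the TA range overlapped those of both TR and RA. No test was made on shares.

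CTNNB1, which encodes beta-catenin, lies at chr3:41236232-41301587 on the plus strand of GRCh37, and was the member with the highest RA and TA. It was at 38.8 and 27.2 RPKM in TR, at 134, 97.1 and 106 in RA, and at 161 and 157 in TA. Every RA and TA library lay above both TR libraries, and both TA libraries lay above all 3 of RA. RA was 3.42-fold above TR, a log2 difference of 1.77 ± 0.22 (SE; adjusted p = 0.000192, limma with Benjamini-Hochberg adjustment over 14305 genes). That placed its RA minus TR difference above 96.6% of the genes tested. TA was 1.43-fold above RA, 0.51 ± 0.22 on the log2 scale, and did not pass the test (adjusted p = 0.108, limma). Centred on library medians, that step was 1.01 and passed (adjusted p = 0.0130, limma), as the typical gene fell between RA and TA. TA was 4.88-fold above TR (adjusted p = 5.7e-05, limma).

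Among the scaffolds of the destruction complex, APC (chr5:112043215-112181936, plus strand) differed between stages in the later step. Its levels were 14.1 and 14.7 RPKM in TR, 14.8, 10.3 and 14.6 in RA, and 4.39 and 5.42 in TA. The TR and RA ranges overlapped, and both TA libraries lay under all others. RA minus TR was -0.14 ± 0.22 on the log2 scale (adjusted p = 0.596, limma), and it turned to 0.53 when libraries were centred (adjusted p = 0.0506, limma). TA was 2.64-fold below RA, a log2 difference of -1.40 ± 0.22 (adjusted p = 0.00432, limma), with 7.79% of the genes tested lower still. This call stood under all 15 alternatives, with adjusted p from 0.0024 to 0.0488 (limma).

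AXIN1 (chr16:337440-402723, minus strand), the constitutive scaffold that APC works with, and AXIN2 (chr17:63524681-63557766, minus strand), its inducible paralog and a standard readout of Wnt signalling, moved in opposite directions from TR to RA. AXIN1 was at 4.91 and 4.56 RPKM in TR, at 11.2, 15.1 and 14.4 in RA, and at 6.39 and 7.74 in TA. The RA libraries were all above the TA libraries, and these were all above TR. AXIN1 rested on 61 and 94 reads in the TR libraries, the fewest of the 8 tested members. RA was 2.80-fold above TR (1.48 ± 0.21, adjusted p = 0.000355, limma), and TA was 1.89-fold below RA (-0.92 ± 0.21, adjusted p = 0.0131, limma). With libraries centred the second step was -0.42 and did not pass (adjusted p = 0.169, limma), and it was also lost without TA replicate 1 (-0.79, adjusted p = 0.0888, limma).

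AXIN2 was at 6.34 and 6.51 RPKM in TR, at 3.48, 2.01 and 3.52 in RA, and at 1.05 and 1.45 in TA. The stages did not overlap, and each step was downward. RA was 2.16-fold below TR (-1.11 ± 0.30, adjusted p = 0.0114, limma) and TA was 2.25-fold below RA (-1.17 ± 0.30, adjusted p = 0.0205, limma), 2 steps that share the RA libraries. The first step was lost when libraries were centred (-0.44, adjusted p = 0.205, limma) and without either TR library. The second was lost when centred (-0.67, adjusted p = 0.114, limma) and without TR replicate 1, TR replicate 2, RA replicate 3 or TA replicate 1. TA against TR was 4.88-fold lower (adjusted p = 0.000328, limma) and passed under all 15 alternatives. Among the genes tested, 38.4% had a lower RA minus TR difference than AXIN2, 14.3% a lower TA minus RA and 30.5% a lower TA minus TR. Of the AXIN2 exon bases, 25.3% are shared with another protein-coding model on the same strand that has no row of its own, and the counting of such reads is not given in the sources used here.

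The DNA-binding partners of beta-catenin were present at very unequal levels. TCF7L2 (chr10:114710006-114927437, plus strand), the main TCF of the intestinal epithelium, was at 80.0 and 76.1 RPKM in TR, at 86.2, 44.6 and 73.5 in RA, and at 75.7 and 107 in TA. Its 3 stages overlapped, and RA replicate 2 lay under every other library. Neither step passed the test, with RA minus TR at -0.25 ± 0.30 (adjusted p = 0.480, limma) and TA minus RA at 0.45 ± 0.30 (adjusted p = 0.265, limma). With libraries centred, the first became 0.42 (adjusted p = 0.209, limma) and the second 0.95, which passed (adjusted p = 0.0360, limma). The first also changed sign without RA replicate 2, to 0.028.

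TCF7 (chr5:133450372-133487556, plus strand), which also gives rise to short forms lacking the beta-catenin binding part, was at 14.8 and 16.3 RPKM in TR, at 8.03, 3.53 and 4.83 in RA, and at 2.19 and 3.66 in TA. TR lay above all other libraries, while RA and TA overlapped. RA was 2.97-fold below TR (-1.57 ± 0.36, adjusted p = 0.0053, limma), a call lost without either TR library, with adjusted p up to 0.0756 (limma). The RA minus TR difference was lower still in 30.7% of the genes tested. TA minus RA was -0.84 ± 0.36 and did not pass (adjusted p = 0.106, limma). Its exons share 210 bases with SKP1 on the opposite strand, and the strand setting of the counting is not given.

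LEF1 (chr4:108968701-109090112, minus strand), a TCF/LEF factor commonly raised in colon cancer, was barely read. It had 3 and 12 reads in the TR libraries (0.214 and 0.516 RPKM), none in the 3 RA libraries, and 0 and 1 in the TA libraries. Pooled over the group, TR gave 0.403 RPKM (95% exact Poisson interval 0.225 to 0.664). For RA the floor was 0.0115 RPKM at 3 reads over the group, and the upper end of its exact interval was 0.0141 RPKM. Set against that floor, TR was at least 35.1-fold higher than RA at its pooled level and 19.7-fold at the lower end of its interval, and it was 88.5-fold higher than TA with an exact interval of 13.6 to 3725. Both folds over RA would be smaller at the upper end of the RA interval. Intervals here cover counting error only. LEF1 stayed under the limit of 1 RPKM and out of the main test, and 279 of its exon bases lie under its antisense transcript LEF1-AS1.

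LGR5 (chr12:71833578-71980090, plus strand) was the other gene under that limit. It had 4 and 2 reads in TR (0.241 and 0.0726 RPKM), 1, 1 and 0 in RA, and 2 and 0 in TA. Pooled TR was 0.136 RPKM (95% exact Poisson interval 0.0499 to 0.296). The ratio of TR to RA was 21.1 with an exact interval of 3.77 to 214, and that of TR to TA was 17.7 with an interval of 3.16 to 179. Of its exon bases, 9.48% lie inside TSPAN8 on the opposite strand. At these depths LGR5 mRNA was near the limit of detection, at 2 reads over the 3 RA libraries.

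Both membrane ligases stepped down at each stage. RNF43 (chr17:56431037-56494956, minus strand) was at 48.3 and 60.2 RPKM in TR, at 18.5, 12.0 and 15.6 in RA, and at 3.43 and 5.05 in TA. No library of a later stage reached any library of an earlier one. RA was 3.55-fold below TR (-1.83 ± 0.25, adjusted p = 0.000313, limma) and TA was 3.57-fold below RA (-1.84 ± 0.25, adjusted p = 0.0035, limma), steps that share the RA libraries. Of the genes tested, 2.23% had a lower TA minus RA difference. TA was 12.7-fold below TR (adjusted p = 7.91e-06, limma). The RA minus TR difference was lower still in 27.3% of the genes tested, and the TA minus TR difference in 16.8%. All 3 calls stood under all 15 alternatives. Of the RNF43 exon bases, 69.0% are shared with other models, chiefly 4326 bases with a same-strand protein-coding model that has no row of its own, so reads assigned to RNF43 may also derive from that model.

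ZNRF3 (chr22:29279560-29453476, plus strand) was at 20.2 and 21.6 RPKM in TR, at 7.56, 5.49 and 8.16 in RA, and at 3.01 and 4.53 in TA. Its stages did not overlap either, and none of its exon bases are shared. RA was 2.96-fold below TR (-1.57 ± 0.25, adjusted p = 0.000804, limma), and this stood under all 15 alternatives. TA was 1.87-fold below RA (-0.90 ± 0.25, adjusted p = 0.0283, limma), which was lost when libraries were centred (-0.40, adjusted p = 0.241, limma) and without TR replicate 1, TR replicate 2, RA replicate 1, RA replicate 3 or TA replicate 1. TA was 5.53-fold below TR (adjusted p = 7.78e-05, limma). Among the genes tested, 30.8% had a lower RA minus TR difference, 24.8% a lower TA minus RA and 28.2% a lower TA minus TR.

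**Figure D3:**
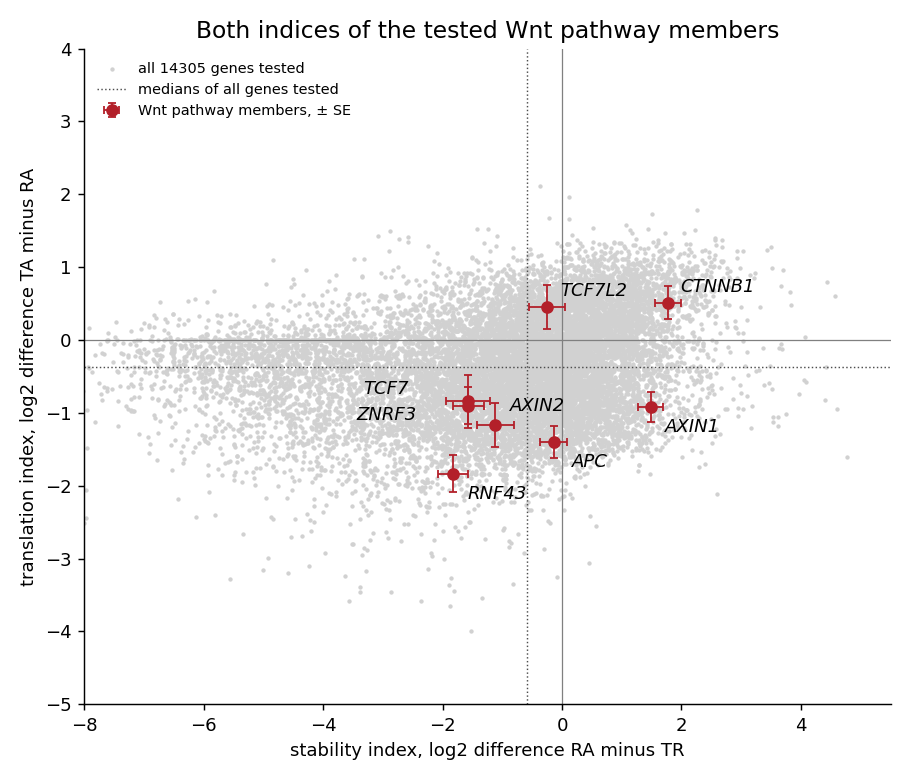
Stability index (log2 difference RA minus TR, x axis) against translation index (log2 difference TA minus RA, y axis) for the 8 tested members, with SE bars, over all 14305 genes tested in grey, of which 54 lie outside the axes. CTNNB1 is at 1.77 and 0.51 and RNF43 at -1.83 and -1.84, while dotted lines mark the medians of all genes, -0.58 and -0.37. Both axes use the same RA libraries.

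Counted over the 8 members tested, each of which had at least 1 RPKM in all 3 stages, 2 were higher in RA than in TR (CTNNB1 and AXIN1) and 4 were lower (RNF43, TCF7, ZNRF3 and AXIN2). Over all genes tested, 19.2% were higher and 48.0% were lower, and these include genes under 1 RPKM at some stage. Tested alone, the 10825 genes at 1 RPKM or more in every stage gave 2632 higher and 3656 lower. The same 10825 genes gave 960 higher and 3224 lower for TA against RA, and 2336 and 4935 for TA against TR. In TA against RA, 0 members were higher and 5 were lower (RNF43, APC, AXIN2, AXIN1 and ZNRF3), against 6.66% and 29.2% of all genes. The count of 0 was from limma and was also 0 at an unadjusted p under 0.05 and by limma-voom on reads. In TA against TR, 1 was higher (CTNNB1) and 5 were lower (RNF43, ZNRF3, TCF7, AXIN2 and APC), against 17.0% and 57.5%. AXIN1 was 1.48-fold higher in TA than in TR and missed the threshold (adjusted p = 0.0529, limma). The median difference of the 8 members was -0.68 for RA minus TR, -0.91 for TA minus RA and -1.91 for TA minus TR, beside -0.58, -0.37 and -1.08 for all genes tested.

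With every library centred on its median, the split moved. For RA against TR, 2 members were higher and 3 lower, against 35.4% and 33.7% of all genes. For TA against RA, 2 were higher (CTNNB1 and TCF7L2) and 2 lower (RNF43 and APC), against 19.0% and 9.81%. For TA against TR, 3 were higher (CTNNB1, AXIN1 and TCF7L2) and 4 lower (RNF43, ZNRF3, TCF7 and AXIN2), against 38.0% and 35.3%. Under both scalings, CTNNB1 and AXIN1 were called higher and RNF43, TCF7 and ZNRF3 lower in RA than in TR, and RNF43 and APC lower in TA than in RA.

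**Figure D4:**
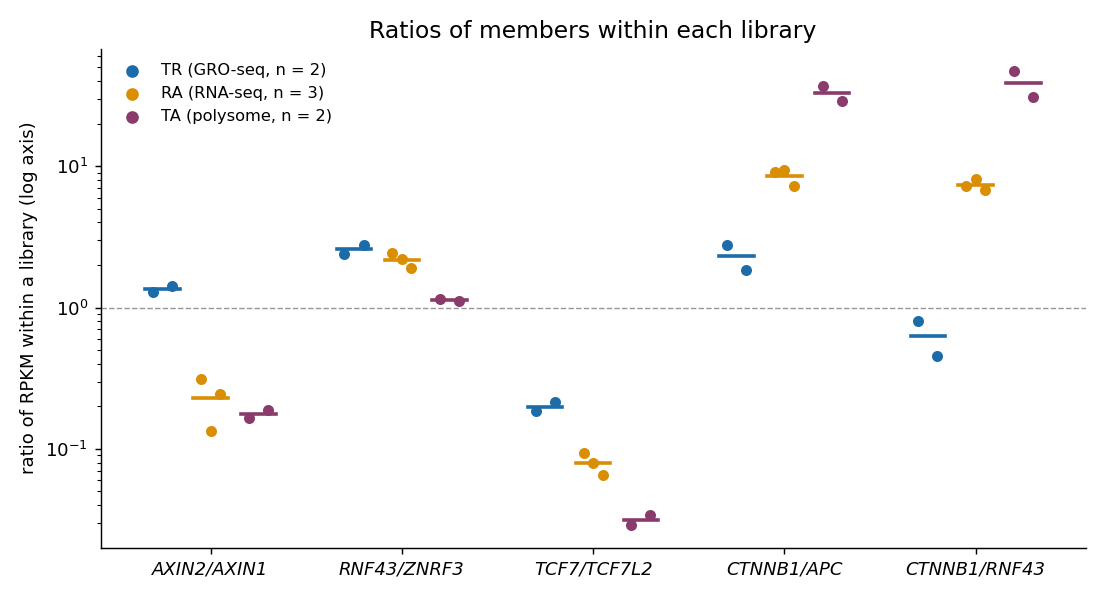
RPKM ratio of a pair of members within each library, on a log axis, with points for libraries and bars for means. AXIN2/AXIN1 drops between TR and RA, RNF43/ZNRF3 between RA and TA, TCF7/TCF7L2 at each step, and the CTNNB1/APC and CTNNB1/RNF43 ratios stand higher at each step.

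Ratios of paralogs within a library were compared next, since they also need no scaling between libraries. AXIN2 to AXIN1 was 1.29 and 1.43 in TR, 0.312, 0.134 and 0.245 in RA, and 0.164 and 0.188 in TA. The TR and RA ranges did not overlap and differed 6.25-fold, while RA and TA overlapped. AXIN2 was the higher of the pair in both TR libraries, and AXIN1 was the higher in every RA and TA library. RNF43 to ZNRF3 was 2.40 and 2.79 in TR and 2.44, 2.19 and 1.91 in RA, which overlapped, and 1.14 and 1.12 in TA, 1.92-fold under RA with no overlap. TCF7 to TCF7L2 was 0.185 and 0.215 in TR, 0.0932, 0.0792 and 0.0658 in RA and 0.0290 and 0.0344 in TA, falling 2.53-fold and then 2.49-fold with no overlap at either step. With 2 against 3 libraries a two-sided exact permutation test cannot go below p = 0.2, the value reached by each of the 4 comparisons without overlap among the 6 made (adjusted p = 0.3 each).

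The ratio of CTNNB1 to APC was 1.85 and 2.75 in TR, 7.28 to 9.44 in RA and 29.0 and 36.7 in TA. The 3 stages did not overlap. Against AXIN1 it was 5.97 and 7.90 in TR and 6.44 to 12.0 in RA, which overlapped, and 20.3 and 25.2 in TA. Against RNF43, CTNNB1 was under 1 in TR, at 0.452 and 0.804, and stood at 6.83 to 8.06 in RA and 31.1 and 47.0 in TA. Against TCF7L2 it was 0.421 ± 0.090 in TR (SD, n = 2), 1.73 ± 0.39 in RA (n = 3) and 1.80 ± 0.46 in TA (n = 2), so this ratio moved at the first step and overlapped at the second. These CTNNB1 ratios were picked with the levels known and carry no test.

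RA replicate 2 was the lowest of its group for APC, AXIN2, CTNNB1, RNF43, TCF7, TCF7L2 and ZNRF3 and the highest for AXIN1. The 10 genes summed to 190 RPKM there, against 284 and 241 in RA replicates 1 and 3. Its median over all genes tested was 3.12, beside 3.18 in both others on the log2 scale. Without it, the calls of RA against TR were held by the same 6 members, and TCF7 was added to those lower in TA than in RA (-1.11, adjusted p = 0.0356, limma).

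**Figure D5:**
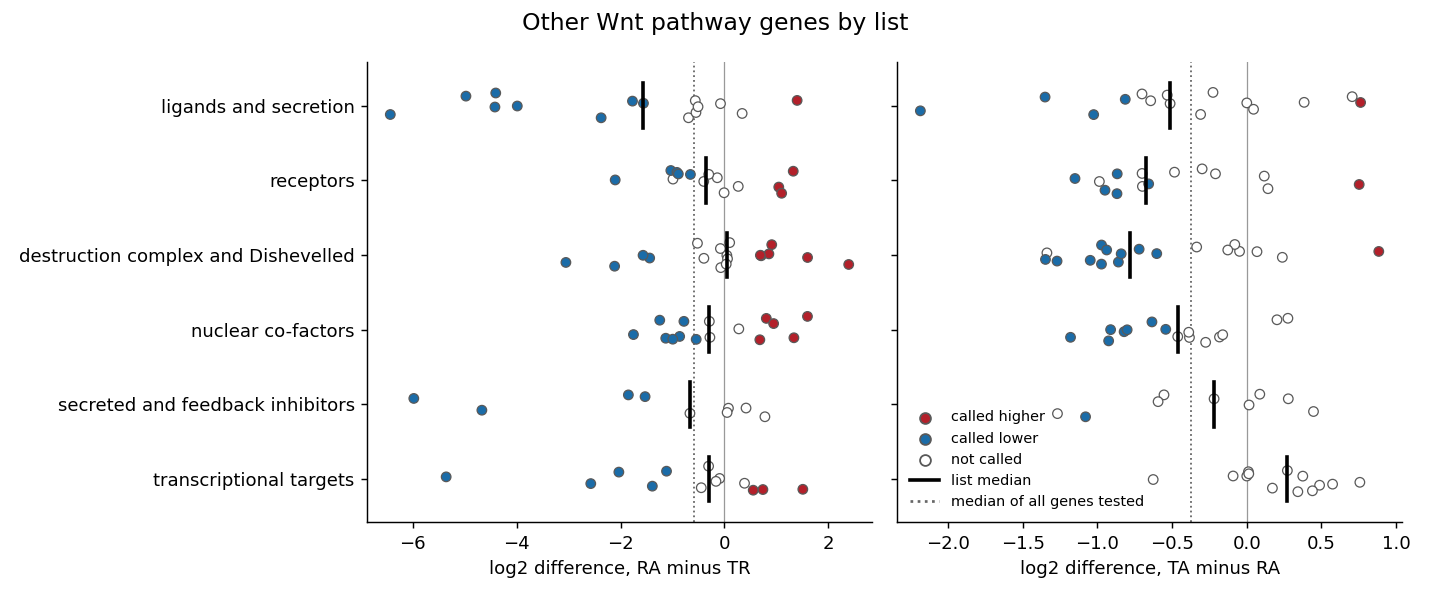
Log2 difference of each tested gene in 6 lists of other Wnt pathway genes, RA minus TR at left and TA minus RA at right, filled where limma called a difference at an adjusted p under 0.05. Thick bars are list medians and dotted lines the medians of all genes tested, -0.58 and -0.37.

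Beyond the 10, 112 other genes of the pathway in 6 lists were all in the table, and 84 were tested. Of these, 18 were higher and 33 lower in RA than in TR, where 19.2% and 48.0% of all genes tested were called. In TA against RA, 3 were higher and 27 lower, beside 6.66% and 29.2% of all genes, and in TA against TR 8 were higher and 43 lower, beside 17.0% and 57.5%. Their medians were -0.40, -0.39 and -0.63, beside -0.58, -0.37 and -1.08 for all genes tested. With libraries centred, the counts in the same order were 31 higher and 22 lower (35.4% and 33.7% of all genes), 12 higher and 3 lower (19.0% and 9.81%), and 35 higher and 19 lower (38.0% and 35.3%). Of the 33 lower in RA than in TR, 10 had under 1 RPKM in RA and passed the filter through TR. The shares of all genes given here, as deposited and centred, are the background for the counts of each list below.

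In the ligand and secretion list, 1 gene was higher and 8 were lower of 15 tested in RA against TR, and 5 of the 8 had under 1 RPKM in RA, so that they were tested only because TR was high. With libraries centred 2 were higher and 7 lower. WLS, the carrier that brings Wnt proteins to the cell surface, was the gene that was higher, from 66.8 ± 14 RPKM in TR (SD, n = 2) to 176 ± 34 in RA (n = 3) and 298 ± 54 in TA (n = 2). The ligand WNT8B went from 53.0 ± 6.9 in TR to 0.518 ± 0.091 in RA, and WNT4 from 22.9 ± 3.0 to 0.637 ± 0.14. In TA against RA, 1 gene was higher (WLS again) and 4 were lower, among them WNT8B and WNT9A, and with libraries centred 1 was higher and 1 lower. WNT8B was compared there at 0.518 RPKM in RA and 0.0356 in TA, both under 1 RPKM, and was tested only because TR was high. The WLS call for TA against RA (adjusted p = 0.0466, limma) was lost under 11 of 16 alternatives, limma-voom and each library left out among them, and the WNT9A call when centred (adjusted p = 0.123, limma).

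Of 14 receptor genes tested, 3 were higher and 5 lower in RA than in TR, and 1 was higher and 5 lower in TA than in RA. With libraries centred these became 5 higher and 1 lower, and 1 higher and 0 lower. Before centring, 19.2% and 48.0% of all genes tested were higher and lower in RA, and 6.66% and 29.2% in TA. RYK and LRP5, co-receptors, rose 2.50-fold and 2.14-fold from TR to RA, while the Frizzled receptors FZD9 and FZD2 fell 4.29-fold and 2.04-fold, the second a call lost when centred (-0.36, adjusted p = 0.0928, limma). FZD2, at 18.0 ± 0.19, 8.81 ± 0.98 and 14.9 ± 0.93 RPKM in TR, RA and TA, was the receptor gene higher in TA than in RA (0.75 ± 0.17, adjusted p = 0.0139, limma), a call lost without either TA library (adjusted p 0.0576 and 0.0709, limma). FZD4 was lower there as deposited, a call lost when centred (adjusted p = 0.239, limma), and 91.9% of its exon bases lie inside PRSS23 on the opposite strand.

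The list of other destruction complex and Dishevelled genes had 18 genes tested, 6 higher and 4 lower in RA than in TR. Of all genes tested, 19.2% were higher and 48.0% lower there. Of the 4, 1 had under 1 RPKM in RA and was tested only because TR was high. In TA against RA, 1 was higher and 10 were lower, with a median of -0.78, beside 6.66%, 29.2% and -0.37 for all genes tested. The higher gene was PPP2R1A, the scaffold subunit of protein phosphatase 2A, at 25.4 ± 6.3, 132 ± 9.4 and 243 ± 7.0 RPKM in TR, RA and TA, and its TA against RA call was lost without either TA library (adjusted p 0.0621 and 0.0667, limma). Of the called genes CSNK1G1, a casein kinase, and DVL1, a Dishevelled adaptor, were the lowest, at -1.35 ± 0.18 and -1.27 ± 0.20 on the log2 scale. AMER1, which binds APC, was 4.33-fold lower in RA than in TR. With libraries centred, 12 were higher and 4 lower in RA than in TR, and 2 higher and 2 lower in TA than in RA.

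Among 15 nuclear co-factors, 5 were higher and 7 lower in RA than in TR, and 7 were lower and 0 higher in TA than in RA (limma, also 0 at an unadjusted p under 0.05 and 0 by limma-voom). With libraries centred the split turned, to 2 higher and 0 lower in TA than in RA, and RA against TR had 6 higher and 2 lower. Before centring, 19.2% and 48.0% of all genes tested were higher and lower in RA, and 6.66% and 29.2% in TA. TBL1XR1, a co-regulator that beta-catenin recruits, and CTNNBIP1, an inhibitor of the beta-catenin and TCF contact, rose 3.03-fold and 2.52-fold from TR to RA and fell 2.27-fold and 1.90-fold from RA to TA, falls that were not called when centred (adjusted p = 0.0606 and 0.179, limma). PYGO2 and BCL9, of the complex that binds beta-catenin in the nucleus, fell 3.37-fold and 2.37-fold from TR to RA.

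Secreted and feedback inhibitors had 4 genes lower and 0 higher of 9 tested in RA against TR (limma, also 0 at an unadjusted p under 0.05 and 0 by limma-voom). Over all genes tested, 48.0% were lower and 19.2% higher there. Of the 4, SFRP5 and DKK3 had under 1 RPKM in RA and were tested only because TR was high. SFRP5, a secreted Wnt antagonist, was at 9.18 ± 1.0 RPKM in TR and 0.0520 ± 0.045 in RA and was listed at 0 in both TA libraries. DKK3 was at 5.74 ± 2.1 in TR and 0.131 ± 0.071 in RA, and 47.5% of its exon bases lie inside USP47 on the opposite strand. NKD1, a feedback inhibitor that acts on Dishevelled, was the gene of this list lower in TA than in RA (-1.08 ± 0.31, adjusted p = 0.0286, limma), a call lost when centred (-0.58, adjusted p = 0.171, limma). With libraries centred the list had 2 higher and 4 lower in RA than in TR and 0 called in TA against RA.

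Of 13 transcriptional targets tested, 3 were higher and 5 lower in RA than in TR, and 0 were called in either direction in TA against RA (limma, with 1 higher and 0 lower at an unadjusted p under 0.05 and 0 by limma-voom). Their median TA minus RA was 0.27, beside -0.37 for all genes tested, and with libraries centred 6 of 13 were higher and 0 lower there, and 4 higher and 4 lower in RA than in TR. Before centring, 19.2% and 48.0% of all genes tested were higher and lower in RA, and 6.66% and 29.2% in TA. With libraries centred these shares were 35.4% and 33.7%, and 19.0% and 9.81%. CCND1, cyclin D1, rose 1.67-fold from TR to RA. ASCL2, an intestinal stem cell factor, was at 3.99 ± 0.21 RPKM in TR and was listed at 0 in all RA and TA libraries, and SP5 went from 4.04 ± 0.29 to 0.679 ± 0.44. Both ASCL2 and SP5 had under 1 RPKM in RA and were tested only because TR was high.

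The genes whose levels over the 3 stages lay nearest to each member were sought by distance in mean log2 level, over 10825 genes that reached 1 RPKM at every stage. The nearest to CTNNB1 was KARS, a lysyl-tRNA synthetase, at 35.4, 115 and 155 RPKM in TR, RA and TA, a distance of 0.11. The nearest to APC was HIPK3, at 14.9, 12.4 and 4.71 RPKM, a distance of 0.12. The nearest to ZNRF3 was ZNF292, at 20.2, 6.65 and 3.70 RPKM, a distance of 0.10. AXIN1 and RNF43 had the most distant nearest genes of the 8, FAM171A1 at 0.22 and FAM219B at 0.15.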

How the data were processed

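Log-phase HCT116 cells were assayed by GRO-seq, RNA-seq and polysome profiling. The authors aligned the reads with TopHat to hg19, counted those on exons with HTSeq-count, and deposited them as RPKM for each gene and library. The submitters' processing notes also name CASAVA. The counting mode and strand setting are not given in the sources used here. The paper calls the replicates biological, and the labels number them within each assay. The paper describes log-phase cells divided into parts for the assays, so libraries of different assays may share a culture. Neither the paper nor the labels say which libraries do, or which came from separate cultures. The main test takes no pairing, and its p-values measure the spread between these libraries.

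Reads per gene and library were worked out from the RPKM values, and 100% of values above 0 came out whole within 0.001. On simulated data 7 of 7 library sizes were recovered and 99.1% of genes exactly. A gene was tested where its mean reached 1 RPKM in any assay, which kept 14305 genes and 8 of the 10 members. Differences were fitted on log2(RPKM + 0.1) by limma (version 3.58.1, R version 4.3.3) with a mean-variance trend over all 7 libraries, and p-values were adjusted by Benjamini-Hochberg with a threshold of 0.05. The pseudocount understates differences of low genes. Where 4-fold changes were simulated in 200 of 14305 genes, limma called 82.5% of them for RA against TR with 8 false calls and 77.0% for TA against RA with 10. Ratios within a library were compared by two-sided exact permutation tests in Python 3.11.15 with scipy 1.17.1. Exons and sequences came from GENCODE release 44 on GRCh37, and the annotation the authors counted on may differ.

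The members and lists were chosen with earlier results of these data known. All members are named. From each other list the 2 highest and 2 lowest called genes with 1 sign in every pair of libraries were eligible for each of RA against TR and TA against RA, and a few of the 3 nearest genes per member are named. A gene that the rule makes eligible is not reported here. Alternatives were pseudocounts of 0.01 and 1, no filter, a stricter filter of 1 RPKM in every assay, library medians as centres, no trend, limma-voom on the reads, a replicate block, and each library left out. The floor of detection was 3 reads. Replicate numbers were not taken as pairs.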

Additional observations from a re-analysis of the deposited data

How the results depend on the processing

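With 2 or 3 libraries per assay, several calls rest on single libraries, and the TR libraries were the most shallow. Causes of the changes below were not tested. Of the members' differences under planned and added alternatives, 349 kept direction and call, 23 lost the call, 7 gained it and 5 changed sign. The paralog ratios and the levels moved by less than the spread between libraries.

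Centring on library medians gave 5066 higher calls over all genes and 31 among other pathway genes for RA against TR. For TA against RA it gave 2713 higher and 1404 lower over all genes, 2 higher and 2 lower among members, and 12 higher and 3 lower among other pathway genes. For TA against TR it gave 5436 higher and 5044 lower over all genes, 3 higher among members, and 35 higher and 19 lower among other pathway genes. RA minus TR became 0.53 for APC and 0.42 for TCF7L2, neither of them called. Asking for 1 RPKM in every assay, which tests fewer genes, left 3656 lower over all genes and 17 among other pathway genes for RA against TR, and 4935 and 26 for TA against TR. A pseudocount of 0.01 gave 2 members higher in TA than in TR. On the recovered reads, limma-voom gave 2495 higher and 6759 lower for RA against TR, 991 and 4478 for TA against RA, and 2289 and 8126 for TA against TR.

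Leaving out 1 library at a time, members lower in RA than in TR ranged from 2 to 4, the 2 without either TR library, and other pathway genes higher from 10, without TR replicate 2, to 18. Members lower in TA than in RA ranged from 2, without TA replicate 1, to 6, and were 3 without TR replicate 1, TR replicate 2 or RA replicate 3. Over all genes TA against RA ran from 198, without TA replicate 1, to 1030 higher and from 1803, again without TA replicate 1, to 4228 lower, with 422 higher without RA replicate 3 and 456 without TA replicate 2. Other pathway genes ran from 0 to 2 higher and from 8 to 27 lower there, with 12 lower without RA replicate 3 and 15 without TA replicate 2. Members higher in TA than in TR were 1 to 2, the 2 without RA replicate 1. RA minus TR ranged from -0.23 to 0.031 for APC and from -0.45 to 0.028 for TCF7L2, both highest without RA replicate 2, and TA minus TR from -0.044, without TA replicate 2, to 0.45 for TCF7L2, none of them called.

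Deviations of libraries with the same number had correlations over 10825 genes of 0.15 for TR and RA, -0.56 for RA and TA and 0.02 for TR and TA, and the numbers were not taken to pair the libraries. With a replicate block, TA against RA gave 109 higher and 1387 lower over all genes, 0 higher and 3 lower among other pathway genes, and 2 lower among members, APC and RNF43, with adjusted p of 0.0783 for AXIN1, 0.113 for AXIN2 and 0.143 for ZNRF3 (limma), while counts for the other comparisons stayed within 1.5 times. A block with the TA numbers exchanged, chosen after seeing the data, gave 680 and 3542 over all genes, 4 members lower and 17 other pathway genes lower.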
